A study of Mus musculus with 12 samples.

Results

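The mitochondrial ribosomal protein genes were examined in MLE-12 cells, an immortalized mouse line with features of alveolar type II (AT II) epithelial cells. Every row of the gene expression table whose symbol begins with Mrpl or Mrps followed by a digit was taken, which gave 78 genes of 34745, 48 named for the large subunit (Mrpl) and 30 for the small subunit (Mrps). In all, 4 groups of 3 libraries were sequenced at 24 h: cells kept in 85% oxygen (Hyp), cells in 85% oxygen with exosomes from M2 macrophages at 10 µg/mL (Hyp + M2-Exo), cells given lipopolysaccharide at 100 ng/mL in 21% oxygen (LPS), and cells given the same LPS with M2-Exo (LPS + M2-Exo). None of the 12 libraries came from uninjured cells, and levels under injury were not set against a resting level. The study asked how M2-Exo act on injured AT II cells, and the 4 groups also allow a comparison of the 2 injuries. The labels do not say that libraries of a group came from separate cultures, so p-values measure the spread between these libraries only.

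The mitochondrial ribosome translates the few messenger RNAs that the mitochondrial genome encodes, all of them for subunits of the respiratory chain and ATP synthase. Its RNAs are transcribed in the mitochondrion, whereas all its proteins are encoded in the nucleus, made in the cytoplasm and imported. Some of these proteins have a direct bacterial counterpart and others were added in mitochondria, and both kinds are needed for assembly of the large and the small subunit. AT II cells depend on respiration for surfactant synthesis, which makes this machinery relevant to the lung epithelium.

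Of the 78 genes, 77 had counts in all 12 libraries and passed the filter on low counts in every comparison. The remaining row, the pseudogene Mrps36-ps3, had 0 counts throughout, which allows at most 0.125 to 0.187 CPM (counts scaled to a common library size) in a library, counting error only. Bacterial homologues made up 46 of the 77 and mitochondria-specific proteins 30. The classes follow the uniform names of the proteins, so Mrps18a and Mrps18b, relatives of bacterial S18 at sites of their own, were counted as mitochondria-specific and Mrps18c as a homologue. Mrps36, now known as a subunit of the 2-oxoglutarate dehydrogenase complex, was placed in neither class. The symbol is not always the place in the particle: Mrps18a and Mrps30 belong to the large subunit in the mammalian structure, so the results were also divided by structure into 50 large and 26 small subunit genes. FPKM is fragments per kilobase of gene length, scaled to the library's depth. The length implied by the counts and FPKM ran from 566 to 13836 bases, and levels are compared between genes on the FPKM scale only. For some genes this length exceeded the span of their coordinates, as for Mrps17 at 13836 bases (chr5:129715497-129722556). How the lengths were set is not known, and the order of genes by FPKM depends on them.

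Every Hyp library was deeper than every LPS library. Total counts ran from 16021833 to 19185116 in the 6 libraries given LPS and from 20231632 to 24074616 in the 6 kept in 85% oxygen. The AT II check was mixed: Sftpc (surfactant protein C) averaged 14.5 ± 1.04 FPKM in Hyp and 27.0 ± 1.14 in LPS (n = 3 each), and Krt8 81.3 ± 3.14 and 84.4 ± 2.39, whereas Sftpa1 and Sftpd were at or near 0 in all 4 groups and Epcam and Krt18 stayed below 0.5 FPKM in every group mean.

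The promoters of the 6 members with the lowest values in LPS against Hyp and of 3 with higher values are shown first, because most members differed in the same direction. Most members stand at loci of their own, but Mrpl46 and Mrps11 overlap head to head and their windows share bases. A window from 250 bases before to 30 bases after the transcription start (RefSeq, GRCm38.p6) was found for 68 of the 77 genes. Mrpl13, Mrpl15, Mrpl19, Mrpl38, Mrpl4, Mrpl54, Mrps28, Mrps34 and Mrps35 were not in the table of windows used here. The RefSeq start lay farthest from the start of the gene as counted for Mrpl33 (17016 bases), Mrps24 (7979) and Mrpl35 (3185). Capitals mark the letters searched for on both strands: GCATGCGC (NRF1), CCGGAAGT (ETS factors such as GABP), AAGATGGCG (YY1), CACGTG (E-box) and TGACGTCA (CRE). Mrps18b (chr17:35916411-35916690, minus strand), Mrps22 (chr9:98601650-98601929, minus strand), Mrpl57 (chr14:57825989-57826268, plus strand), Mrpl45 (chr11:97315466-97315745, plus strand), Mrps18a (chr17:46110754-46111033, plus strand) and Mrpl32 (chr13:14613008-14613287, minus strand) are the 6 lowest, in that order. Mrps21 (chr3:95871485-95871764, minus strand) had the highest value, and Mrpl14 (chr17:45686099-45686378, plus strand) and Mrpl23 (chr7:142532782-142533061, plus strand) were higher in LPS both without and with M2-Exo.
Mrps18b: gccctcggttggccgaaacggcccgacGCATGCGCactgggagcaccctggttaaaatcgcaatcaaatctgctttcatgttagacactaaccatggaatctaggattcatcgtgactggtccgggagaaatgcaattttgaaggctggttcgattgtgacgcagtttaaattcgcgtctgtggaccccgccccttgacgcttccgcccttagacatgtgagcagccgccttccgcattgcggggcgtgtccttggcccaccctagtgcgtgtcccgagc
Mrps22: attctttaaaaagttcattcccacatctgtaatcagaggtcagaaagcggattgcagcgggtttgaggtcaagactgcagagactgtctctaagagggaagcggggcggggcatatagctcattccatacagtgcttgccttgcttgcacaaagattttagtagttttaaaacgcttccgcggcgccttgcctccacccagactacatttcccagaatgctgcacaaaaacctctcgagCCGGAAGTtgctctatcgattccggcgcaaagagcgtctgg
Mrpl57: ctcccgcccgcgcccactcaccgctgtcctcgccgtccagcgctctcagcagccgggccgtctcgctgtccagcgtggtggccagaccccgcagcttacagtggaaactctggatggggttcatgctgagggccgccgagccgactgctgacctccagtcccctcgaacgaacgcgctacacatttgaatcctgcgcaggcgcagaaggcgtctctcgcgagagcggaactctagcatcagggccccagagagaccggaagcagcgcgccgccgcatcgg
Mrpl45: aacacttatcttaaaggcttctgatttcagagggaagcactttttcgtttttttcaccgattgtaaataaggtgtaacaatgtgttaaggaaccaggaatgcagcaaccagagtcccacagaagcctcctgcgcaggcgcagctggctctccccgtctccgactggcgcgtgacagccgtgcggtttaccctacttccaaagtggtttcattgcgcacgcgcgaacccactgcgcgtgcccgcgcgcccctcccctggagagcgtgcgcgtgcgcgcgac
Mrps18a: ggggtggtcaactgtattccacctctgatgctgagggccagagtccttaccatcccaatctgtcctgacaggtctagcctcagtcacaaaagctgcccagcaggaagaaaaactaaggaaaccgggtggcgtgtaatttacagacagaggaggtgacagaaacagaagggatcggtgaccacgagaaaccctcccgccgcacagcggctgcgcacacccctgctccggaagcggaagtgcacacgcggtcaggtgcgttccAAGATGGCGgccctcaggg
Mrpl32: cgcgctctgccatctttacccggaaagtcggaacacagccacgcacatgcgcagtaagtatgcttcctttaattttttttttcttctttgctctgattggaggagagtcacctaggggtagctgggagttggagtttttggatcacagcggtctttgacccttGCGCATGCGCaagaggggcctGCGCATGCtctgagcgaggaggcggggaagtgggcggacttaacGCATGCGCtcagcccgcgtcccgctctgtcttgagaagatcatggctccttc
Mrps21: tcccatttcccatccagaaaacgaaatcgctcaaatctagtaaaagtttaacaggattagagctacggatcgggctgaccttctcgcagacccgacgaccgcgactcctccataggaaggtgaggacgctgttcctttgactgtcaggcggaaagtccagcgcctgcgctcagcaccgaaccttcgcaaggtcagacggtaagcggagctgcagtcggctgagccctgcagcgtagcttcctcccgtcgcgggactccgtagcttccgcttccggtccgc
Mrpl14: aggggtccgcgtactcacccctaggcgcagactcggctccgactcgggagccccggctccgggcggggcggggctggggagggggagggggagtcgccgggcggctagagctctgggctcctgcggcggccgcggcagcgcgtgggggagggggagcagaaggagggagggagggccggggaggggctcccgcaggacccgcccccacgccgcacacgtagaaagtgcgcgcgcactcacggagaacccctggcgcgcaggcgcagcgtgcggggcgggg
Mrpl23: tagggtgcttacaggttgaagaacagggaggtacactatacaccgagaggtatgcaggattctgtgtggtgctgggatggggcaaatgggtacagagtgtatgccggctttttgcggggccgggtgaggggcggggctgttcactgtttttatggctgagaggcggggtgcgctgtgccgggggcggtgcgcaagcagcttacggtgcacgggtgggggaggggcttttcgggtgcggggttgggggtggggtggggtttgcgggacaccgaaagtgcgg

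The NRF1 letters stood in 8 of the 68 windows (11.8%), against 716 of 27025 windows of all genes (2.65%), and 4 matches, a pair of them overlapping, lie in the Mrpl32 window alone. The ETS letters were found in 11 windows (16.2%, against 3.76% of all genes) and the YY1 letters in 4 (5.88%, against 1.1%). The E-box was present in 5 windows (7.35%, against 6.75%) and the CRE in 2 (2.94%, against 1.75%). In all, 26 of the 68 windows held at least 1 of the 5 and 42 held none, among them the windows of Mrpl45, Mrpl57 and Mrps7, which were among the lowest in LPS, and of Mrps21, Mrpl14 and Mrpl23, which were higher. Of the 8 genes with the NRF1 letters 6 were called lower in LPS than in Hyp, and of the 60 without them 47. These matches describe the letters in a fixed window and are not evidence of binding. Where a gene had several windows, the window nearest the gene's start was used for members and the first by position for all genes.

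Most mitochondrial ribosomal protein genes were lower in LPS than in Hyp. Of the 77 genes tested, 60 were called lower and 5 higher (edgeR quasi-likelihood test, Benjamini-Hochberg adjusted p under 0.05 over 13805 genes). In the same comparison 38% of all genes tested were called lower and 37.8% higher. The median log2 fold change of the 77 genes was -0.41, which is 75.3% of the Hyp level, beside -0.01 over all genes tested and -0.09 over 4683 other genes whose length and FPKM lay between the 10th and 90th percentiles of the members. Their summed counts were 0.396% ± 0.00288 of all counts in Hyp and 0.272% ± 0.000718 in LPS (n = 3 each). The plot of ranked fold changes shows a gradual run from Mrps18b up to values near 0 and 5 higher genes apart from it.

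**Figure D1:**
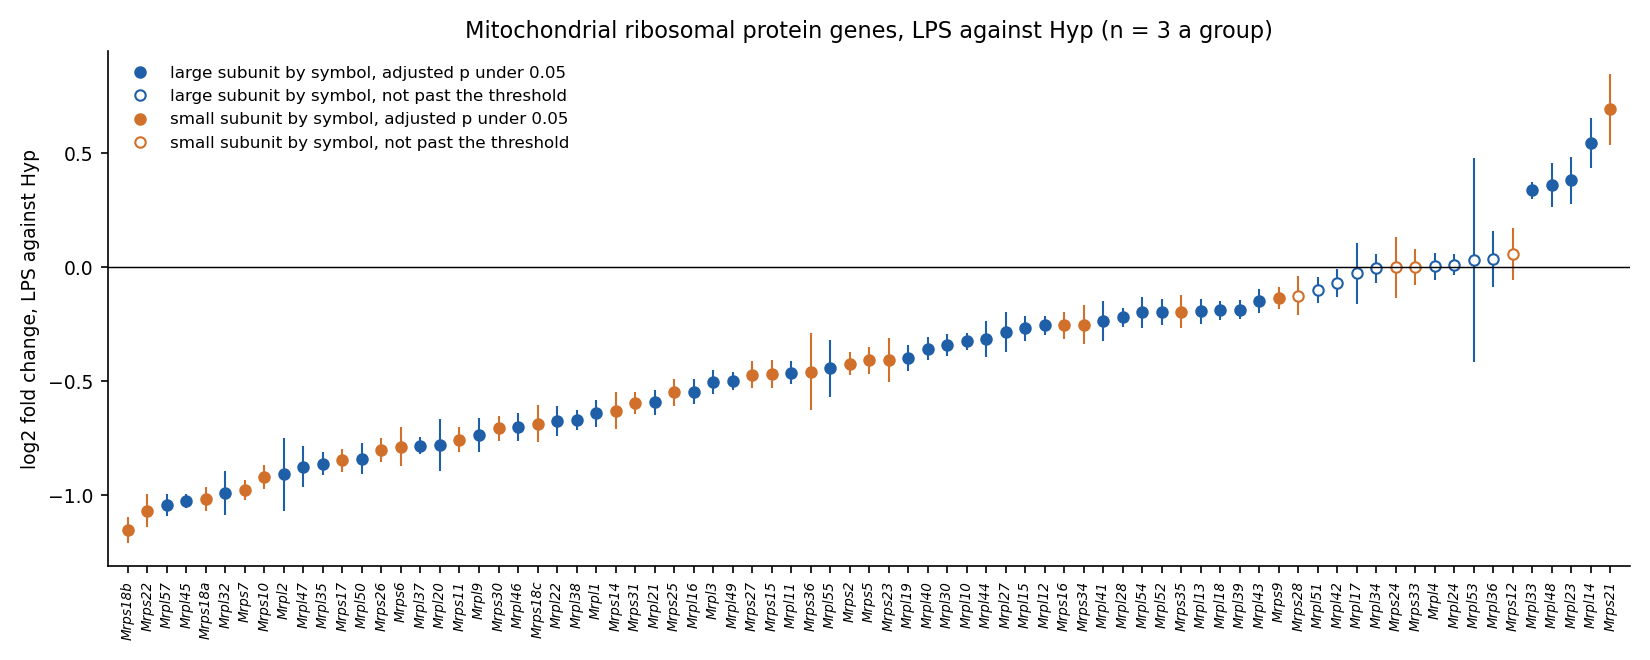
Log2 fold change of each of the 77 genes in LPS against Hyp (y axis), ordered by value along the x axis, with bars for the standard error (n = 3 libraries a group); blue marks large and orange small subunit genes by symbol, and filled points had an adjusted p under 0.05. The 60 lower genes begin with Mrps18b at -1.15, and the 5 higher genes, ending with Mrps21 at 0.69, stand apart at the right.

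Among small subunit genes, Mrps18b, one of the 3 mammalian relatives of bacterial protein S18, showed the largest difference. It measured 11.7, 12.1 and 11.5 FPKM in Hyp and 5.15, 4.76 and 5.03 in LPS, a log2 fold change of -1.15 (SE 0.06, adjusted p = 6.89e-07). Mrps22, a mitochondria-specific protein whose loss in humans impairs mitochondrial translation, measured 8.998, 9.69 and 8.88 FPKM in Hyp and 3.95, 4.49 and 3.91 in LPS, or -1.07 (SE 0.07, adjusted p = 3.62e-06). The groups did not overlap for either gene. Mrps7 and Mrps10, homologues of bacterial proteins in the head of the small subunit, followed with -0.98 (SE 0.04, adjusted p = 3.86e-07) and -0.92 (SE 0.05, adjusted p = 1.39e-06). For Mrps7, an abundant member, the values were 70.8, 69.1 and 72.1 FPKM in Hyp and 35.7, 33.6 and 31.9 in LPS.

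The S18 relatives can be read side by side, since they occupy different places. Mrps18a, which sits in the large subunit, measured 11.9, 12.3 and 12.2 FPKM in Hyp and 5.95, 5.44 and 5.53 in LPS (log2 fold change -1.02, SE 0.05, adjusted p = 7.6e-07). Mrps18c, the relative at the site of the bacterial protein, measured 23.1, 24.6 and 20.3 in Hyp and 12.5, 13.5 and 13.6 in LPS (log2 fold change -0.69, SE 0.08, adjusted p = 0.000101). All 3 relatives were therefore called lower in LPS, by different amounts. Mrps30, the other large subunit protein with a small subunit name, fell by 0.71 on the log2 scale. The small subunit members Mrps2, Mrps6, Mrps16 and Mrps34 were also called lower, at -0.42, -0.79, -0.26 and -0.25, the last of these lost in 5 of 16 alternative settings. Mrps12, homologue of the decoding-centre protein S12, had 0.06 (SE 0.11, adjusted p = 0.663) and did not pass. Mrps36 had -0.46 (SE 0.17) and was called lower, a call lost in 5 of 16 alternative settings.

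In the large subunit, Mrpl57, a short mitochondria-specific protein, measured 19.7, 19.8 and 19.6 FPKM in Hyp and 8.99, 8.92 and 9.05 in LPS, a log2 fold change of -1.04 (SE 0.05, adjusted p = 4.96e-07). Mrpl45, which helps to hold the ribosome at the inner membrane beside the peptide exit tunnel, measured 70.1, 67.5 and 68.7 in Hyp and 32.0, 31.3 and 32.0 in LPS, or -1.03 (SE 0.03, adjusted p = 8.72e-08). Both genes were lower in every LPS library than in every Hyp library, with spreads within groups far smaller than the difference. Mrpl32, whose product is matured by the mitochondrial m-AAA protease before it is built in, averaged 44.2 ± 3.47 FPKM in Hyp and 20.9 ± 2.46 in LPS (n = 3 each), and Mrpl35 and Mrpl37 had -0.86 (SE 0.05) and -0.78 (SE 0.04). In the stalk and stalk base, where translation factors bind, Mrpl10 had -0.33, Mrpl11 -0.46 and Mrpl12 -0.26, all called lower. Of the remaining members with a known role, Mrpl3 (-0.50), Mrpl20 (-0.78), Mrpl41 (-0.24) and Mrpl44 (-0.32) were called lower, although the call of Mrpl41 was lost in 7 of 16 alternative settings, and Mrpl36 had 0.04 (SE 0.12, adjusted p = 0.792) and was not called.

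In LPS, 5 genes were called higher, 4 of them of the large subunit. Mrps21, homologue of bacterial S21, had the largest value, 0.69 (SE 0.15, adjusted p = 0.00382), with 11.3, 17.6 and 12.2 FPKM in Hyp and 21.7, 21.4 and 19.3 in LPS. Mrpl14, a protein of the subunit interface, measured 15.3, 14.3 and 11.5 in Hyp and 20.1, 19.0 and 17.3 in LPS (log2 fold change 0.55, SE 0.11, adjusted p = 0.00215). Mrpl33 measured 7.66, 7.83 and 8.11 in Hyp and 9.30, 9.31 and 9.42 in LPS (log2 fold change 0.34, SE 0.04, adjusted p = 7.5e-05). For each of these genes the lowest LPS library was above the highest Hyp library. Mrpl23, a protein of the exit tunnel, and Mrpl48, of the central protuberance, had 0.38 (SE 0.10, adjusted p = 0.00959) and 0.36 (SE 0.10, adjusted p = 0.00979). Mrpl23 rested on 99 to 110 counts a library and Mrpl48 on 406 to 508 in these groups, and the call of Mrpl23 was lost with DESeq2 (adjusted p = 0.0829). The call of Mrpl48 was kept in 15 of 16 alternative settings and lost with limma on log2(FPKM + 1) without a filter.

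**Figure D2:**
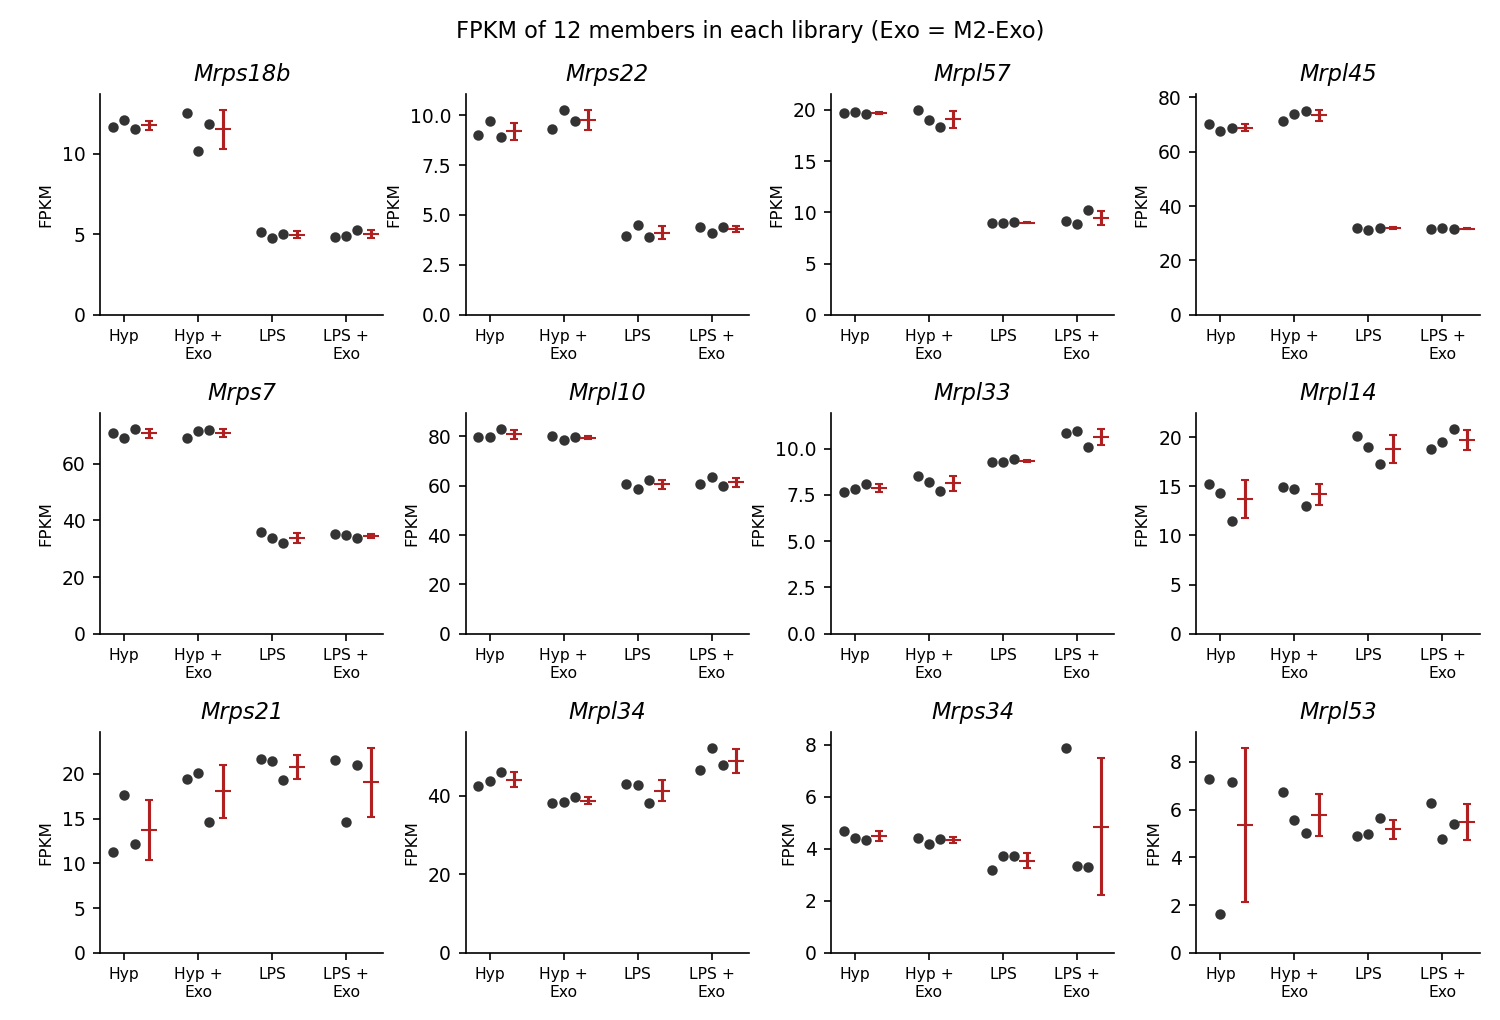
FPKM (y axes, from 0) of 12 genes in each of the 12 libraries, by group; points are libraries and red bars the mean ± SD (n = 3). Mrps18b, Mrps22, Mrpl57, Mrpl45, Mrps7 and Mrpl10 separate by injury, Mrpl33 and Mrpl14 are higher in LPS, and single libraries stand apart for Mrps34 and Mrpl53.

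The assignment of reads is uncertain for some members. Overlap with another gene of the table was found for 35 members, and 18 members had a near-identical copy of their coding sequence elsewhere in the genome (at least 95% identity over at least 100 bases), with 25 copies in all, of which 1 had a row of its own in the table. Mrps21, Mrpl23 and Mrpl48 have such copies, among them a pseudogene identical to Mrpl23 over 438 bases, and Mrpl14 and Mrpl48 overlap a neighbouring gene, so the counts of these 4 higher genes are uncertain. Mrpl33 has no copy elsewhere, and the genes that overlap it had few reads, 19 to 33 counts a library for Rbks and 4 to 15 for Gm43809, against 1595 to 2039 for Mrpl33. Among the 29 members with neither a copy elsewhere nor an overlap by the coordinates used here, 24 were called lower and 0 higher, with a median of -0.44. This division was made after the values were seen. Mrpl43, counted among the 29, shares 239 identical bases with Twnk, which overlaps it in GENCODE M21. Twnk had 19356 counts over the 12 libraries and Mrpl43 15147. Among the 18 with copies 12 were called lower and 3 higher. Mrps18b, the lowest gene, has both a copy (99.8% identity over 414 bases) and an overlapping gene.

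Both subunits were lower in LPS, and the median was lower for the small subunit genes, a difference that was not tested. By symbol, 36 of 48 large subunit genes were called lower and 4 higher, with a median of -0.32, and 24 of 29 small subunit genes were called lower and 1 higher, with a median of -0.47. By structure the medians were -0.33 for 50 large and -0.47 for 26 small subunit genes. Summed FPKM of the large subunit genes was 1128 ± 5.07 in Hyp and 819 ± 3.20 in LPS, and that of the small subunit genes 485 ± 10.2 and 317 ± 2.18 (n = 3 each). The ratio of the sums, large over small, was 2.37, 2.28 and 2.33 in Hyp and 2.58, 2.58 and 2.59 in LPS. Every LPS library was thus above every Hyp library in this ratio, and the same held by structure, with 2.68 to 2.79 in Hyp and 2.94 to 2.97 in LPS. The sums are led by the genes with the highest FPKM, and the weight of each gene depends on its implied length. The ratio therefore describes messages on this scale and not particles.

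**Figure D3:**
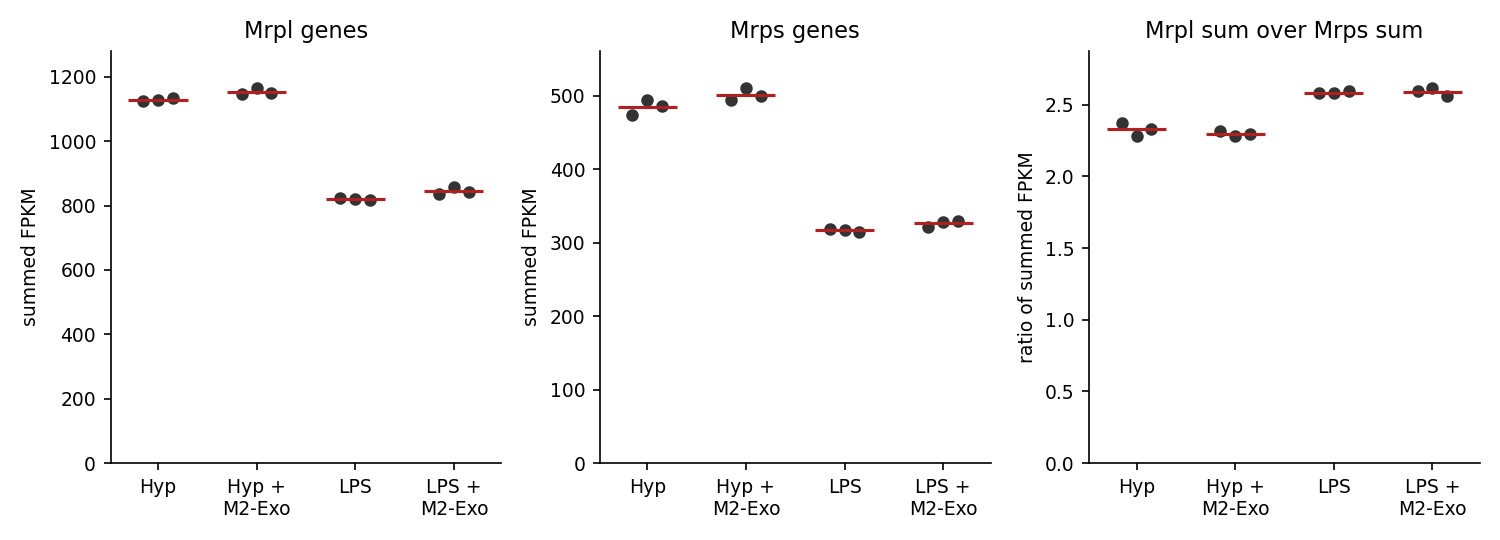
Summed FPKM of Mrpl genes (left), of Mrps genes (middle) and their ratio (right) in each library; points are libraries, red lines group means (n = 3), and all y axes start at 0. Sums near 1128 and 485 in Hyp stand against 819 and 317 in LPS, and the ratio is higher in all 6 LPS libraries than in all 6 Hyp libraries.

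Bacterial homologues and mitochondria-specific proteins were both lower in LPS. Of 46 homologues 34 were called lower and 4 higher (median -0.40), and of 30 mitochondria-specific genes 25 were called lower and 1 higher (median -0.44). Among mitochondria-specific small subunit genes 9 of 10 were called lower, and among small subunit homologues 12 of 16. With M2-Exo present the order of these shares turned, with 7 of 10 and 13 of 16, and over both subunits 63.3% of mitochondria-specific genes and 71.7% of homologues were called lower. These are small groups of one list, and no test of the difference between classes was made.

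The order of the members by level was alike over all 77 genes but changed among the most abundant, where LPS shared 3 of its 5 highest genes with Hyp and LPS + M2-Exo 2. In the mean over all 12 libraries, Mrpl10 was highest at 70.5 FPKM, followed by Mrpl42 at 58.4, Mrpl49 at 56.1, Mrps7 at 52.4 and Mrpl45 at 51.4. The lowest were Mrps36 at 1.65, Mrpl23 at 2.22, Mrpl15 at 2.35, Mrpl48 at 2.47 and Mrps10 at 2.87 FPKM. A low place does not always mean few reads, since Mrpl15, Mrpl48 and Mrps10 had implied lengths of 12658, 9011 and 11986 bases. In Hyp, Mrpl15 had 708 to 800 counts a library. Mrpl34, with an implied length of 645 bases, had 622 to 715 counts there and averaged 44.1 FPKM. The lowest genes also changed place between groups: in Hyp, Mrpl55 (3.65 ± 0.532) lay below Mrps10 (3.84 ± 0.0774), and in LPS, Mrpl47 (2.46 ± 0.278) lay below Mrpl48 (2.70 ± 0.275). Mrpl10 was first in Hyp (80.8 ± 1.91) and in LPS (60.6 ± 1.78), whereas Mrps7 and Mrpl45, the next in order below it in Hyp at 70.7 ± 1.53 and 68.8 ± 1.31, fell in LPS to 33.8 ± 1.91 and 31.8 ± 0.387, below Mrpl42 at 53.5 ± 2.02. Mrps7, Mrpl45 and Mrpl49 overlapped in Hyp as neighbours in this order (67.4 ± 1.17 FPKM for Mrpl49). The rank correlation of the 77 mean levels was 0.944 between Hyp and LPS, across genes that share libraries and lengths.

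The difference between injuries was seen again in the libraries with M2-Exo, which share none with the first comparison. In LPS + M2-Exo against Hyp + M2-Exo 53 of the 77 genes were called lower and 7 higher, where 37.1% of all 13660 genes tested were lower and 36.5% higher. The median was -0.42, with -0.32 for large and -0.51 for small subunit genes by symbol and -0.36 and -0.42 by structure. Across the 2 comparisons 52 genes were called lower in both, 4 higher in both and 0 in opposite directions, and the 56 shared calls were 86.2% of the first set and 93.3% of the second, beside 89.1% and 91.8% over all genes, so the members' shares were near the background. The log2 fold changes of the 77 genes correlated with r = 0.932, across genes and beside 0.952 over 13535 genes tested in both.

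**Figure D4:**
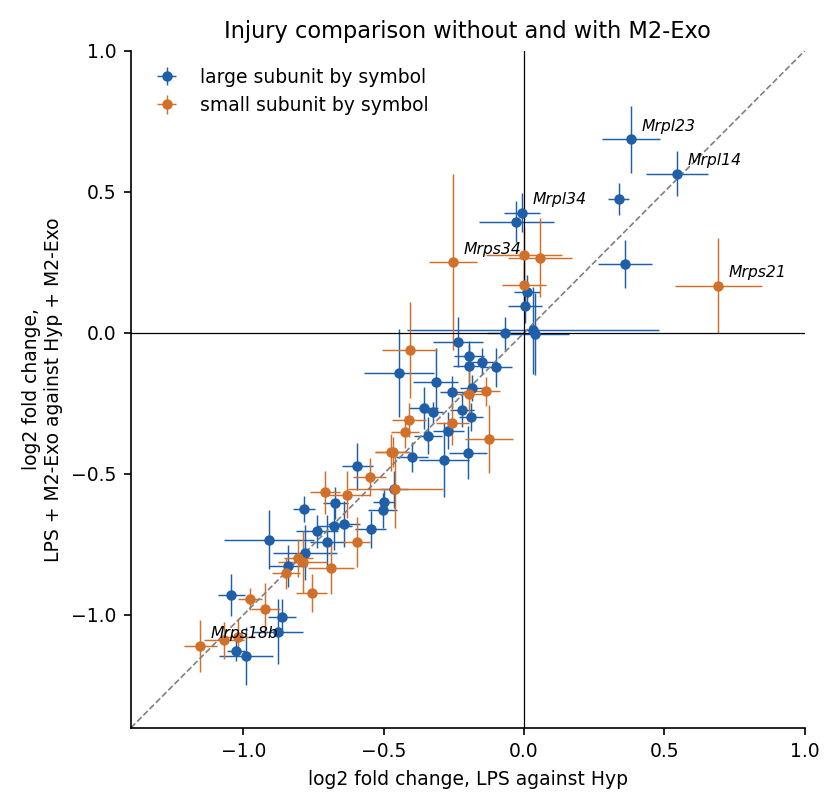
Log2 fold change of the 77 genes in LPS against Hyp (x axis) and in LPS + M2-Exo against Hyp + M2-Exo (y axis), with standard errors; blue points are large and orange points small subunit genes by symbol, and the dashed line marks equal values. Most points lie along the line at the lower left, and Mrpl34, Mrps34 and Mrps21 lie farthest from it among the labelled genes.

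In this second comparison Mrpl32 (log2 fold change -1.15, SE 0.10, adjusted p = 1.91e-05) and Mrpl45 (log2 fold change -1.13, SE 0.04, adjusted p = 1.38e-07) had the lowest values. Mrpl45 measured 71.2, 73.8 and 75.1 FPKM in Hyp + M2-Exo and 31.5, 31.8 and 31.4 in LPS + M2-Exo, groups that did not overlap. Mrps18b (-1.11), Mrps22 (-1.09), Mrps18a (-1.08), Mrpl35 (-1.01), Mrps7 (-0.94), Mrps11 (-0.92), Mrps17 (-0.85) and Mrpl49 (-0.60) were among the 8 lower genes with the smallest adjusted p or the 3 lowest. The 7 higher genes were Mrpl23 (0.69), Mrpl14 (0.56), Mrpl33 (0.47), Mrpl34 (0.43), Mrpl17 (0.39), Mrps24 (0.28) and Mrpl48 (0.24). Mrps21 was not called here (log2 fold change 0.17, SE 0.17, adjusted p = 0.391). The calls of Mrps24 and Mrpl48 were lost in 10 and 8 of 16 alternative settings.

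Genes that serve the mitochondrial ribosome were read against the 38% of all genes called lower and the 37.8% called higher in LPS against Hyp, with no test of the lists. Of 12 translation factors of the mitochondrion 10 (83.3%) were called lower in LPS against Hyp and 0 higher, with a median of -0.51: Mtif3, an initiation factor, had -1.32 (SE 0.07, adjusted p = 8.65e-07) and Gfm1, an elongation factor, -0.74 (SE 0.03, adjusted p = 3.37e-07). Of 25 genes for ribosome assembly and rRNA modification 22 (88%) were lower and 1 higher (median -0.55), with Fastkd2, which acts in assembly of the large subunit, at -0.90, Eral1, a chaperone of the small subunit rRNA, at -0.98, Mrm3, a methyltransferase for the large subunit rRNA, at -1.85, and Nsun4, which acts in ribosome assembly, as the higher gene at 0.94. Of 14 genes for mitochondrial transcription and RNA 8 (57.1%) were lower and 0 higher (median -0.39), including Lrpprc, which stabilizes mitochondrial messenger RNAs, at -1.03 (SE 0.03, adjusted p = 6.7e-08). The remaining lists lay nearer the share of all genes. Among 17 mitochondrial aminoacyl-tRNA synthetases 9 (52.9%) were lower and 3 higher (median -0.36), and among 10 regulators of mitochondrial biogenesis 5 (50%) were lower, including Ppargc1a at -0.91 and Gabpb1 at -0.84, and 2 higher, Myc at 0.52 and Yy1 at 0.16. The 7 genes with other symbols, for proteins of the mitochondrial ribosome and for Oxa1l, which binds it, were divided, 2 lower and 3 higher (median 0.06), with Ptcd3 at -0.34, Ict1, now called Mrpl58, at -0.20, Dap3 at 0.22 and Oxa1l, an inner membrane insertase and not a ribosomal protein, at 0.44.

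Other groups of genes went the other way. All 13 mitochondrially encoded messages were called higher in LPS than in Hyp, with a median of 0.61 and values from 0.35 to 0.82, and mt-Co1 had 0.81 (SE 0.05, adjusted p = 2.03e-06). These 13 transcripts made up 2.76% ± 0.121 of counts in Hyp and 4.06% ± 0.182 in LPS (n = 3 each). Of 81 cytoplasmic ribosomal protein genes tested 61 were called higher and 6 lower, with a median of 0.44. In CPM the mitochondrial ribosomal protein genes summed to 3855 ± 22.5 in Hyp and 2807 ± 16.8 in LPS, and the cytoplasmic ones to 15545 ± 164 and 20311 ± 134. With M2-Exo present the same lists had 12 of 13 messages called higher and 56 of 81 cytoplasmic genes called higher, against 6 lower. The members of these lists were chosen with earlier results of these data known and share the background of the comparison.

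Several properties of the libraries moved with this difference. Oxygen, LPS and depth differed together between the injuries and cannot be told apart. Of the 10 macrophage markers tested of 12 listed, 8 were higher in LPS and 1 lower; the summed FPKM of the list was 51.4 to 53.7 in Hyp, 39.9 to 59.4 in Hyp + M2-Exo, 158 to 181 in LPS and 125 to 142 in LPS + M2-Exo, with Lyz2 at 21.1 ± 1.11 in Hyp and 78.7 ± 8.19 in LPS, Adgre1 at 3.66 ± 0.532 and 20.8 ± 1.44, and Siglecf at or near 0 throughout. The summed fibroblast list was 159 to 173 in Hyp and 367 to 374 in LPS, nearly all of it Dcn, and the AT II and epithelial list was 121 to 130.1 and 182 to 190 with Nkx2-1, the lung epithelial transcription factor, at 12.6 ± 0.632 and 51.8 ± 0.254. Of 5 fibroblast markers tested 3 were called higher in LPS and 0 lower, and of 9 AT II and epithelial markers tested 8 were called higher and 1 lower. The endothelial list was low and went the other way, with sums of 0.317 to 0.365 FPKM in Hyp and 0.0234 to 0.0677 in LPS, and both markers tested were called lower in LPS. The part of these differences in the levels of the mitochondrial ribosomal protein genes was not tested. Fewer cells of one kind and less RNA per cell cannot be told apart in such bulk libraries.

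M2-Exo changed no mitochondrial ribosomal protein gene past the threshold in hyperoxia. In Hyp + M2-Exo against Hyp 0 of 77 genes were called by edgeR, and 0.0507% of 13815 genes tested were called higher and 0.0507% lower. DESeq2 also called 0 of 77, beside 0.152% of all genes higher and 0.116% lower. At an unadjusted p under 0.05, 8 members were higher and 4 lower, where 3.83% of all genes were higher and 4.65% lower. Without overlap between the groups, 13 members were higher and 9 lower, beside 7.35% and 8.22% of all genes. The median log2 fold change was 0.03, with 0.04 for large and 0.03 for small subunit genes. Summed FPKM of the members was 1613 ± 13.7 in Hyp and 1654 ± 18.1 in Hyp + M2-Exo, and the Hyp + M2-Exo libraries, at 1639 to 1674, lay above the Hyp libraries, at 1598 to 1622. The ratio of large to small subunit sums overlapped, at 2.28 to 2.37 and 2.28 to 2.32.

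Single members with the largest values in hyperoxia did not pass. Mrps21 measured 11.3, 17.6 and 12.2 FPKM in Hyp and 19.4, 20.1 and 14.7 in Hyp + M2-Exo, 0.40 (SE 0.18, adjusted p = 0.596). The 2 groups overlapped for this gene. Mrps36 and Mrps28, homologue of bacterial S1, had 0.31 (SE 0.15) and 0.21 (SE 0.08), and the lowest values were those of Mrpl17 at -0.28 (SE 0.09), Mrps12 at -0.27 (SE 0.08) and Mrpl2 at -0.23 (SE 0.15). Mrps12 measured 4.16, 4.50 and 4.58 in Hyp and 3.71, 3.70 and 3.55 in Hyp + M2-Exo without overlap, with an adjusted p of 0.544 by edgeR. Mrpl2 rested on 1 library, with 25.01, 17.3 and 16.5 FPKM in Hyp and 17.2, 17.3 and 15.7 in Hyp + M2-Exo.

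In LPS, too, no member passed the threshold with M2-Exo. In LPS + M2-Exo against LPS 0 of 77 genes passed with edgeR, where 0.0524% of 13353 genes were higher and 0.135% lower. DESeq2 called 0 of the 76 to which it gave an adjusted p, beside 0.417% of all genes higher and 0.762% lower. At an unadjusted p under 0.05, 4 members were higher and 0 lower, beside 4.99% and 6.1% of all genes. Groups without overlap were found for 5 higher and 3 lower members, beside 5.5% and 11.1%. The median was 0.04, with 0.06 for large and 0.04 for small subunit genes. Summed FPKM was 1131 to 1141 in LPS and 1157 to 1187 in LPS + M2-Exo, which did not overlap on this scale, whereas in TMM-scaled CPM the sums did, at 2792 to 2825 and 2821 to 2892. The ratio of large to small subunit sums also overlapped, at 2.58 to 2.59 and 2.56 to 2.61. The macrophage marker sum given above was lower in LPS + M2-Exo than in LPS, and its part was not tested. None of the mitochondrial and cytoplasmic ribosome lists described above held a gene called in either M2-Exo comparison.

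The highest value in LPS belonged to Mrps34, a mitochondria-specific small subunit protein, and rested on 1 library. It measured 3.20, 3.71 and 3.70 FPKM in LPS and 7.88, 3.34 and 3.29 in LPS + M2-Exo, which gave 0.45 on the log2 scale (SE 0.32, adjusted p = 0.663), and -0.09 without replicate 1 of LPS + M2-Exo. In that library Mrps34 had 480 counts, against 196 and 223 in the others of its group, while the genes that overlap it, Nme3 and Mapk8ip3, had 29 and 1609 counts, against 22 to 26 and 1516 to 1894. Mrpl55 and Mrps23 followed with 0.31 (SE 0.11) and 0.29 (SE 0.19), and for Mrps23 1 library stood above the others (12.7, 21.6 and 14.8 FPKM). The lowest were Mrpl36, Mrps21 and Mrps11, at -0.13, -0.12 and -0.11, and Mrps21 turned to 0.04 without replicate 2 of LPS + M2-Exo.

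**Figure D5:**
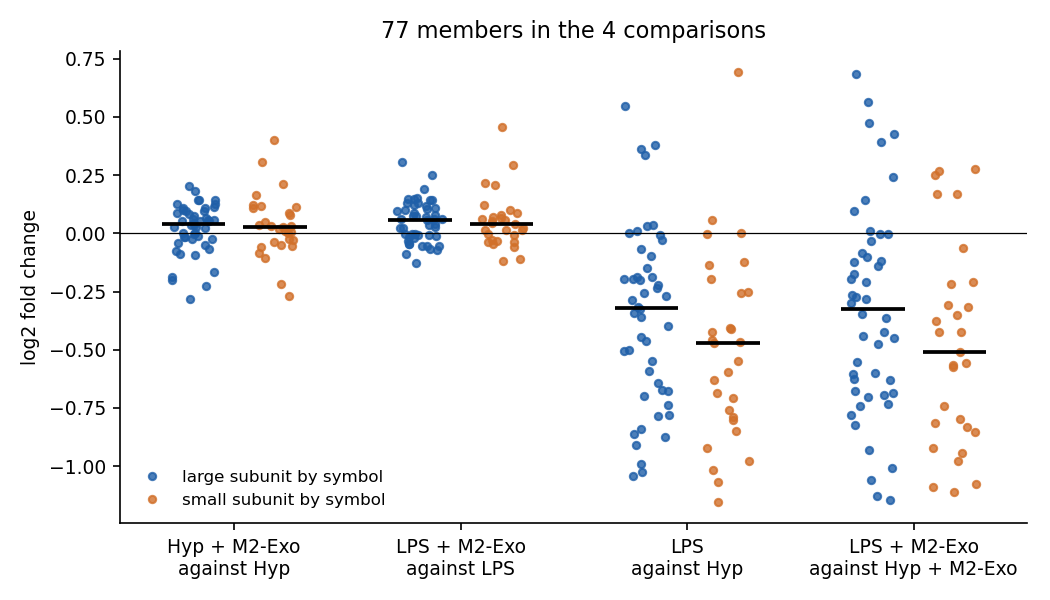
Log2 fold change (y axis) of the 77 genes in the 4 comparisons (x axis), large subunit genes in blue and small subunit genes in orange by symbol; black bars are medians and points are spread sideways for sight only. Medians lie between 0.03 and 0.06 in the M2-Exo comparisons and between -0.32 and -0.51 in the comparisons of injuries.

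Whether the M2-Exo effect differed between the injuries was tested directly. In the test of the difference over all 12 libraries 0 of 77 genes passed with edgeR, where 0.0352% of 14187 genes did, and 4 had an unadjusted p under 0.05, beside 9.78% of all genes. The 4 were Mrpl34, Mrpl17 at 0.42, Mrpl37 at 0.16 and Mrpl45 at -0.10 (LPS minus hyperoxia). Mrpl34, homologue of bacterial L34, measured 42.4, 43.8 and 46.0 FPKM in Hyp and 38.0, 38.5 and 39.6 in Hyp + M2-Exo, and 42.9, 42.7 and 38.2 in LPS and 46.5, 52.2 and 47.8 in LPS + M2-Exo. It was thus lower with M2-Exo in hyperoxia and higher with M2-Exo in LPS, without overlap in either case, and the difference was 0.43 (SE 0.09, adjusted p = 0.202) by edgeR, whereas DESeq2 called it at an adjusted p of 0.0401. It was 1 of 74 members with an adjusted p from DESeq2, which called 70 of 10055 genes (0.696%) for this difference. Of the 77 genes 31 were above 0 in both M2-Exo comparisons, 9 below 0 in both and 37 opposite, beside 3336, 3258 and 6335 of 12929 genes tested in both, and the fold changes correlated with r = -0.101 across genes, beside 0.0438 over those genes.

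A single library also set the spread of Mrpl53, chosen here after its values were seen. It measured 7.28, 1.62 and 7.15 FPKM in Hyp, with 50 counts in replicate 2 against 240 and 242 in the others. Its overlapping neighbour Ccdc142 had 900 counts in that library, against 1040 and 1187. The log2 fold change of Mrpl53 in LPS against Hyp was 0.03 (SE 0.45), the largest standard error of the 77 genes. This value near 0 rested on Hyp replicate 2, since the other Hyp libraries lay above every LPS library (4.91 to 5.64 FPKM).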

How the data were processed

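RNA of 12 libraries of MLE-12 cells, 3 in each of 4 groups taken from the sample labels, was sequenced after poly(A) selection. The authors deposited 1 table with a raw count and an FPKM value per gene and library. Per the labels and the study's methods, the authors aligned reads to GRCm38 with HISAT2 2.0.4 and computed FPKM with StringTie 1.3.0, and the counting program, annotation release and strand setting are not given in the sources used here. Without a known strand setting, reads of a gene and an overlapping antisense gene cannot be told apart. The labels name RNeasy columns for extraction and the study's methods Trizol. 0 columns belonged to samples outside the series.

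Counts were tested with edgeR 4.0.16 (R 4.3.3): TMM scaling, filterByExpr, quasi-likelihood F test on the 6 libraries of a comparison, and Benjamini-Hochberg adjustment over all genes tested, with a threshold of 0.05. The difference between M2-Exo effects was tested as an interaction over 12 libraries. Every adjusted p in the text comes from this edgeR test unless DESeq2 (1.42.0) is named. FPKM served for levels and, with limma 3.58.1, for an alternative on log2(FPKM + 1) or log2(FPKM + 0.1). Overlaps come from the table's coordinates and copies from aligning coding sequences to GENCODE M21 transcripts. The tests were checked on simulated counts. These had less spread between replicates than the data, and their changes were larger than any member's change with M2-Exo. The check therefore does not cover effects as small as those. Total counts of 16021833 to 24074616 limit precision for genes of few counts, and the 0-count limit is 3 counts of a library's total. Replicates differed by more than sampling noise (chi-square over degrees of freedom 6.68 to 10.9).

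Members were named if called (the 8 smallest adjusted p in each direction of a comparison), if among the 3 highest or 3 lowest fold changes, if among the 5 highest or 5 lowest levels, or if on a list of members with a known role. Genes of other lists, apart from the cell type markers, were named only if called, at most 4 a list. Markers of cell types were named whether or not they were called. The members and lists were chosen with earlier results of these data known. Alternatives were other scalings, filters, tools, pseudocounts, 1 fit over all libraries, a replicate block, and leaving out each library.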

Additional observations from a re-analysis of the deposited data

How the results depend on the processing

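No called gene changed sign in any of the 16 alternatives of either comparison of the injuries. In LPS against Hyp 52 to 63 members were called lower and 4 to 5 higher, and 54 of the 65 calls were kept in every alternative. The 52, without LPS replicate 1, stood beside 5163 lower and 5138 higher of 14181 genes. With library size alone the 63 stood beside 5927 lower and 4639 higher of 13805. With M2-Exo 51 to 57 members were called lower and 5 to 8 higher, and 55 of 60 calls were kept. The 51, without Hyp + M2-Exo replicate 2, stood beside 4833 lower and 4770 higher of 13888 genes. With library size alone in place of TMM the medians were -0.4993 and -0.5139, where the medians of all genes tested were -0.0987 and -0.0991. Leaving out each library gave medians from -0.4489 (without LPS replicate 2) to -0.3803 (without LPS replicate 1) in LPS against Hyp, from -0.4366 (without Hyp + M2-Exo replicate 1) to -0.3563 (without LPS + M2-Exo replicate 2) with M2-Exo, and from 0.0171 (without Hyp + M2-Exo replicate 2) to 0.04012 (without Hyp + M2-Exo replicate 3) in Hyp + M2-Exo against Hyp. In LPS + M2-Exo against LPS, Mrps21 ran from -0.2164 to 0.03684 and Mrps34 from -0.08678 to 0.6727, the first turning without replicate 2 and the second without replicate 1 of LPS + M2-Exo; the cause was not tested. DESeq2 called 1 member, Mrpl34, for the difference of M2-Exo effects, beside 70 of 10055 genes (0.696%), where edgeR called 5 of 14187 (0.0352%). With a replicate block 0 members were called in either M2-Exo comparison, beside 6 higher and 2 lower of 13815 genes in hyperoxia and 3 and 3 of 13353 in LPS. In LPS against Hyp 57 members were lower and 5 higher, beside 5150 and 5109 of 13805 genes. With M2-Exo 53 were lower and 6 higher, beside 4930 and 4934 of 13660. For the difference 0 members were called, beside 1 higher and 2 lower of 14187 genes. Deviations of libraries of the same number from their group means correlated at -0.0207 to 0.0471 over all genes tested. Such correlations, which also hold counting noise, cannot show whether these libraries shared a culture or a batch. Genes of few counts, such as Mrpl23, are limited by depth.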
